A study of Mus musculus with 18 samples.

Results

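Icam1, Vcam1, Sele, Selp, Pecam1, Cdh5, Kdr, Lyve1, Stab1 and Stab2 are 10 genes of endothelial adhesion, endothelial identity and the liver sinusoid. They were taken by gene symbol, and each matched 1 gene in each of the 3 gene tables, so that all 10 were measured among 21018 genes in any table (19424 in TruSeq, 18108 in Pico, 18051 in V4). The tables hold 18 RNA-Seq libraries of whole liver from 6 male C57/B6J mice aged 12 weeks. The IL-1β mice (ILB.9579, ILB.9582 and ILB.9583) received 20 µg/kg of IL-1β and the saline mice (UNT.9574, UNT.9575 and UNT.9576) received saline, both intraperitoneally, and livers were taken 4 h later. RNA of every mouse entered all 3 kits, and counts are given in that order of mice. Pico is a stranded total RNA kit with depletion of ribosomal cDNA (1.7 to 2.6 ng of RNA), V4 an unstranded poly(A) kit (0.8 to 1.3 ng) and TruSeq a stranded poly(A) kit (200 ng). No genetic change or second agent is given for either treatment. The labels state that the livers were frozen in liquid nitrogen, and the study's methods that they were perfused with PBS and kept in RNAlater.

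Endothelial cells line the blood vessels, and in the liver the sinusoidal endothelium forms a fenestrated wall that clears waste molecules from blood through scavenger receptors. Inflammatory cytokines such as IL-1β act on endothelium through NF-κB, which switches on adhesion molecules. Selectins let leukocytes roll on the vessel wall, ICAM-1 and VCAM-1 hold them firmly through integrins, and the junction proteins PECAM-1 and VE-cadherin keep the wall closed and are engaged as leukocytes cross it.

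The sequences below are the promoters of the adhesion genes with an entry, all higher with IL-1β in at least 1 kit, and, for contrast, of Kdr, which fell. They come from RefSeq on GRCm38.p6, each spanning 250 bases before to 50 after the start of the gene, 5′ to 3′ on the strand of the gene, and 6 of the 10 genes had an entry. Capitals mark matches to GGNNNTTCC, a loose form of the site bound by NF-κB, searched on both strands. Icam1 lies at chr9:21015690-21015989 (plus strand), Sele at chr1:164047984-164048283 (plus), Selp at chr1:164115014-164115313 (plus) and Kdr at chr5:75978406-75978705 (minus).
Icam1: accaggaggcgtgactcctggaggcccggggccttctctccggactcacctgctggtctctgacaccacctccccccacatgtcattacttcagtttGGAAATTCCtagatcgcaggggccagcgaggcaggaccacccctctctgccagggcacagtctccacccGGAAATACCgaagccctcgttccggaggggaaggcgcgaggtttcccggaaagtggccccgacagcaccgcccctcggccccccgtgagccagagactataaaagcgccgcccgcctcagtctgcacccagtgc
Sele: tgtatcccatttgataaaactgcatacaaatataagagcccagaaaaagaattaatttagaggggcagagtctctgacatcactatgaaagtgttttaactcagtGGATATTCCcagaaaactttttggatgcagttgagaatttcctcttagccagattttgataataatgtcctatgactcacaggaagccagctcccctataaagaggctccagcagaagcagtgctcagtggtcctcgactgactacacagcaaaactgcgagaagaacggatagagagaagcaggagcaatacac
Selp: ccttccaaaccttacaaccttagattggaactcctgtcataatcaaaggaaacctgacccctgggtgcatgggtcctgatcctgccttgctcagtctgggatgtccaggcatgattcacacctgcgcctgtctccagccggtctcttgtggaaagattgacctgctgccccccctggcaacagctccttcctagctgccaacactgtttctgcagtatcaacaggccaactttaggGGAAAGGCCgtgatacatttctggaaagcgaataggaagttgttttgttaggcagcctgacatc
Kdr: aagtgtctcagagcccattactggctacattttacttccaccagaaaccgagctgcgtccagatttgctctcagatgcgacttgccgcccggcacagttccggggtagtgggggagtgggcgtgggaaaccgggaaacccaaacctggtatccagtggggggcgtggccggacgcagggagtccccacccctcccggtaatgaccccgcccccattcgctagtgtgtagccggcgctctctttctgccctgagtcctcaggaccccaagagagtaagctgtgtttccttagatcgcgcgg
The Icam1 promoter held 2 matches, GGAAATTCC at position -153, which fits the pattern on both strands, and GGAAATACC at -84 on the minus strand. Sele held 1, GGATATTCC at -145, and Selp 1, GGAAAGGCC at -14 on the minus strand. None was found in these 300 bases of Kdr, Stab1 or Stab2. Of 32851 RefSeq promoters of this length, 18.5% held at least 1 match and 2.16% at least 2. A match here is a run of letters and not evidence of binding.

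The response to IL-1β was compared with saline within each kit, since the kits also differ in RNA input, read length, sequencer and time of sequencing, and these cannot be told apart. Libraries held 12.35 to 12.86 M gene counts in TruSeq, 4.02 to 4.13 M in Pico and 12.01 to 12.35 M in V4, so the counts of a kit can be set side by side directly. The liver label was checked with hepatocyte markers, of which the 9 listed in the tables summed to 87500 to 121000 CPM (counts of a gene per 1 M counts of its library) in TruSeq, 57800 to 70100 in V4 and 73600 to 91300 in Pico. Over all genes tested, log2 fold changes had a median of -0.17 in TruSeq, -0.12 in Pico and -0.22 in V4, and TMM scaling, which evens out composition, raised it by 0.16, 0.14 and 0.16. Of the genes called, 36.0% in TruSeq, 38.6% in Pico and 32.7% in V4 were higher with library totals, against 50.9%, 52.9% and 49.7% with TMM. In whole liver, fewer cells of a type and less RNA per cell cannot be told apart.

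Of the 10 genes, 6 rose in at least 1 kit (Icam1, Vcam1, Sele, Selp, Cdh5 and Lyve1), 3 fell in at least 1 (Kdr, Stab2 and Pecam1), and Stab1 was called in none. The share of all genes called in at least 1 kit was not computed, so these pooled numbers have no background. At an adjusted p of at most 0.05 in limma-voom, 8 of 10 were called in TruSeq, where 34.1% of all genes tested were called. Of these, 5 rose (12.3% of all genes did) and 3 fell (21.8%). In Pico 7 of 10 were called against 17.6% of all genes, with 5 higher (6.78%) and 2 lower (10.8%). In V4 it was 3 of 10 against 11%, with 2 higher (3.6%) and 1 lower (7.41%). Icam1 and Vcam1 rose and Kdr fell in every kit, which makes 3 of 10 against 8.4% of the 16184 genes listed in all tables (3.05% higher and 5.35% lower). The libraries of the 2 treatments did not overlap for 9 of the 10 in TruSeq, 8 in Pico and 5 in V4, against 44.9%, 31.2% and 27.6% of all genes. The standard errors of the log2 fold changes ran from 0.13 to 0.59 in TruSeq, 0.16 to 0.84 in Pico and 0.27 to 1.22 in V4. The 10 genes had a median log2 fold change of 0.59 in TruSeq, 1.17 in Pico and 0.81 in V4.

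**Figure D1:**
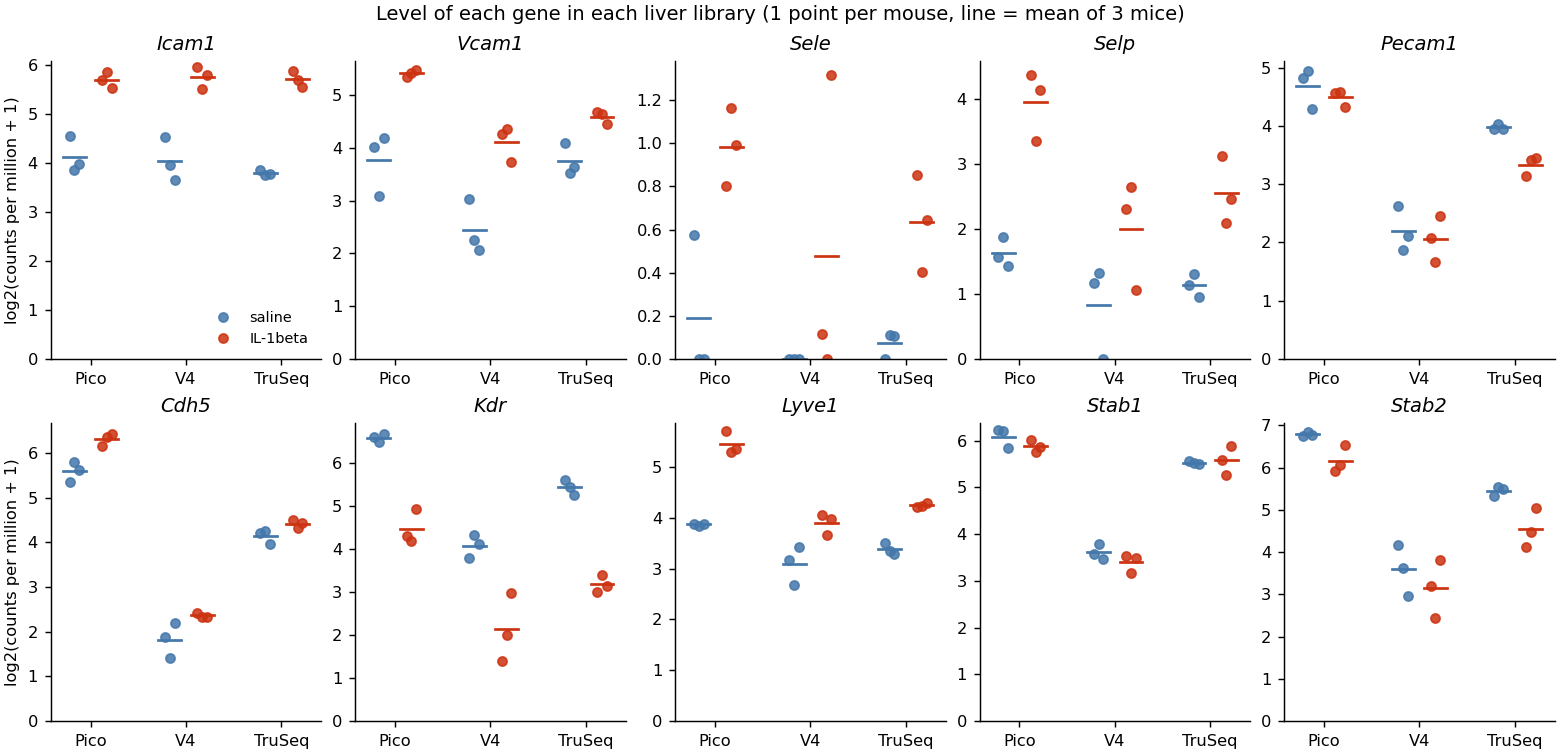
Level of the 10 genes in the 18 libraries, as log2(CPM + 1), by kit (x axis) and treatment (colour), with 1 point per mouse and a line at the mean of 3 mice. Icam1 and Vcam1 sat higher and Kdr lower in the IL-1β mice of every kit without overlap, while the points of Stab1 overlapped in every kit.

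Icam1 (ENSMUSG00000037405; mm9 chr9:20820404-20833241, plus strand, 7 exon blocks) encodes the ligand of the leukocyte integrins LFA-1 and Mac-1. In TruSeq it had 715, 631 and 566 counts in the IL-1β mice and 171, 159 and 162 in the saline mice. The Pico counts were 205, 230 and 183 against 92, 55 and 61, and those of V4 were 747, 539 and 662 against 267, 177 and 142. Every IL-1β library thus stood above every saline library of its kit, and saline mouse UNT.9574 was the highest of the saline mice in all 3 kits. The rise was 1.99 ± 0.13 on the log2 scale in TruSeq (fold change 3.98, SE, n = 3 against 3, adjusted p = 7.48e-06, limma-voom), 1.62 ± 0.23 in Pico (adjusted p = 0.000103, limma-voom) and 1.78 ± 0.27 in V4 (adjusted p = 0.00226, limma-voom). Its exons share 491 bases with Mir1900 on the other strand, which averaged 2.5 counts in V4.

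Vcam1 (ENSMUSG00000027962; mm9 chr3:115812938-115832606, minus strand, 10 exon blocks) encodes the ligand of the integrin VLA-4. TruSeq gave 307, 297 and 260 counts with IL-1β and 205, 135 and 148 with saline. Pico gave 162, 168 and 176 against 62, 31 and 71, and V4 222, 235 and 149 against 87, 46 and 39. The treatments did not overlap in any kit. Its log2 fold change was 1.73 ± 0.27 in Pico (fold change 3.31, adjusted p = 0.000254, limma-voom), 1.88 ± 0.40 in V4 (3.68-fold, adjusted p = 0.0126) and 0.89 ± 0.17 in TruSeq (1.85-fold, adjusted p = 0.00266). The call in V4 was lost without saline mouse UNT.9575 (1.77, adjusted p = 0.0708), the highest value over its alternatives (from 1.97e-05).

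Sele (ENSMUSG00000026582; mm9 chr1:165978365-165987808, plus strand, 14 exon blocks) encodes E-selectin, which activated endothelium makes anew. It was the scarcest of the 10 genes. TruSeq gave 10, 4 and 7 counts with IL-1β and 0, 1 and 1 with saline, and Pico 3, 5 and 4 against 2, 0 and 0. In V4 the counts were 1, 0 and 18 against 0, 0 and 0, so that 18 of the 19 counts came from mouse ILB.9583. The summed counts gave a ratio of 10.8 (95% counting interval 2.64 to 95.2) in TruSeq and 6.11 (1.36 to 56.2) in Pico. These intervals cover counting error only. In V4 the ratio was 6.36 over a floor of 3 counts set for the saline group. It allows for no error in the IL-1β counts and so is not a lower bound. The V4 fit had a 95% interval of -0.24 to 4.78 on the log2 scale, which includes 0. Only the TruSeq fit called it (log2 fold change 2.81 ± 0.59, adjusted p = 0.00505, limma-voom), with adjusted p = 0.0608 in Pico and 0.25 in V4, and with TMM factors Pico called it too (adjusted p = 0.0468, with 0.0291 to 0.304 over its alternatives). Fitted values at such counts depend on the small count that the fit adds to each library.

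Selp (ENSMUSG00000026580; mm9 chr1:166045395-166080157, plus strand, 17 exon blocks) encodes P-selectin, which endothelium and platelets store in granules. Pico gave 79, 37 and 67 counts with IL-1β and 8, 11 and 7 with saline, and TruSeq 95, 40 and 56 against 15, 19 and 12. The treatments did not overlap in these 2 kits. V4 gave 48, 63 and 13 against 15, 18 and 0, where mouse ILB.9583 stood below 2 saline mice. The log2 fold change was 2.73 ± 0.54 in Pico (6.62-fold, adjusted p = 0.00187, limma-voom) and 2.0 ± 0.40 in TruSeq (3.99-fold, adjusted p = 0.00392), and V4 gave 2.75 ± 1.22 without passing (adjusted p = 0.19). The V4 value was 1.03 without mouse UNT.9576 and 3.65 without mouse UNT.9575, and 2.03 with edgeR and 2.06 with DESeq2. Of the platelet and megakaryocyte markers, 2 of 8 listed rose and 1 fell in TruSeq (12.3% and 21.8% of all genes), 2 of 6 rose in Pico (6.78%), and 0 of 8 passed in V4. With edgeR and DESeq2 1 rose in Pico and none fell in TruSeq. Their sum was 13.3 to 17.3 CPM with IL-1β against 6.72 to 9.88 with saline in TruSeq, 27.8 to 31.6 against 8.82 to 12.1 in Pico, and 7.13 to 9.54 against 5.08 to 5.71 in V4. In the IL-1β libraries Itgb3 alone made up 77.2 to 82.5% of this sum in TruSeq and 75.8 to 94.6% in Pico. Gp1bb and Treml1 were at 0 in Pico. Pf4 and Itgb3 were those that rose in TruSeq and Pico and Gp1ba the one that fell in TruSeq (to 0 from a mean of 1.67 counts), Pf4 and Gp1ba being named after their values were seen. Itgb3 rose by 1.91 in Pico and 1.38 in TruSeq, and Itga2b, the integrin subunit of platelets, had log2 fold changes of -0.89 in Pico and -0.38 in TruSeq that did not pass. Their part in the Selp result was not tested. On the other strand the exons of Selp share 438 bases with the lincRNA Gm16548 and 186 with Gm16587. In the unstranded V4 libraries the strand cannot separate reads that lie within these shared bases. Gm16548 was still counted apart from Selp there, with 57, 58 and 69 counts against 95, 85 and 88. In mouse UNT.9576 V4 gave 88 counts for Gm16548 and 0 for Selp. Gm16548 went the other way in TruSeq, with 55, 49 and 63 counts against 144, 116 and 96 (log2 fold change -1.03, adjusted p = 0.00377).

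**Figure D2:**
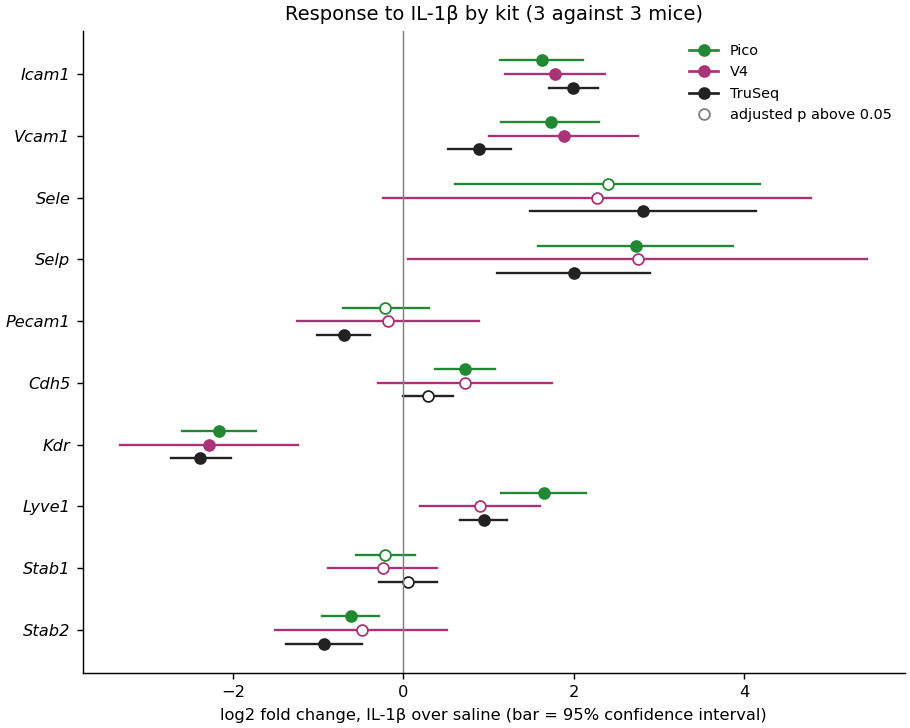
Log2 fold change of IL-1β over saline for each gene (rows) and kit (colour), with its 95% confidence interval from limma-voom. Filled points passed an adjusted p of 0.05. Icam1 and Vcam1 lie right of 0 and Kdr lies left of it in all kits, and the widest intervals are those of Selp and Sele in V4.

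The junction and identity genes did not move together. Pecam1 (ENSMUSG00000020717; mm9 chr11:106515531-106611942, minus strand, 17 exon blocks), the adhesion molecule of endothelial borders that leukocytes and platelets also carry, had 97, 119 and 124 TruSeq counts with IL-1β and 184, 197 and 185 with saline. All IL-1β libraries were thus below all saline libraries, and it fell by 0.70 ± 0.14 (1.62-fold lower, adjusted p = 0.00377, limma-voom). The groups overlapped in Pico (92, 92 and 77 against 112, 123 and 77) and in V4 (39, 26 and 54 against 62, 32 and 41). There the log2 fold changes were -0.21 (95% interval -0.71 to 0.30) and -0.18 (-1.25 to 0.89), and that of V4 turned to 0.08 without mouse UNT.9574 and 0.09 without mouse ILB.9582.

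Cdh5 (ENSMUSG00000031871; mm9 chr8:106625525-106668402, plus strand, 12 exon blocks) encodes VE-cadherin, the cadherin of endothelial junctions. Pico gave 285, 325 and 342 counts with IL-1β and 164, 227 and 199 with saline, V4 53, 49 and 49 against 32, 20 and 44, and TruSeq 268, 234 and 255 against 222, 233 and 186. The IL-1β libraries were above the saline libraries in every kit, in TruSeq by as little as 1 count. It rose by 0.72 ± 0.17 in Pico (1.65-fold, adjusted p = 0.00534, limma-voom). The values of 0.72 ± 0.46 in V4 (adjusted p = 0.39) and 0.29 ± 0.13 in TruSeq (adjusted p = 0.121) did not pass, although with TMM factors TruSeq gave 0.44 and passed (adjusted p = 0.0251, with 0.0215 to 0.277 over its alternatives).

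Kdr (ENSMUSG00000062960; mm9 chr5:76328852-76374483, minus strand, 29 exon blocks) encodes VEGFR2, the main signalling receptor for VEGF-A on endothelium. Its TruSeq counts were 87, 118 and 97 with IL-1β and 598, 545 and 475 with saline. Pico gave 76, 69 and 118 against 392, 367 and 415, and V4 20, 36 and 83 against 153, 231 and 201. No library overlapped with the other treatment in any kit. The fall was 5.20-fold in TruSeq (log2 fold change -2.38 ± 0.16, adjusted p = 9.32e-06, limma-voom), 4.48-fold in Pico (-2.16 ± 0.20, adjusted p = 1.74e-06) and 4.85-fold in V4 (-2.28 ± 0.47, adjusted p = 0.0117). In V4 the call was lost without mouse UNT.9575 (-2.14, adjusted p = 0.0534) and without mouse ILB.9582 (-2.22, adjusted p = 0.06), with 0.00152 the lowest over its alternatives.

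Of the 3 sinusoidal receptors, Lyve1 rose and Stab2 fell in TruSeq and Pico, and Stab1 passed the test in no kit. Lyve1 (ENSMUSG00000030787; mm9 chr7:117994121-118006467, minus strand, 6 exon blocks) encodes a hyaluronan receptor of lymphatic and sinusoidal endothelium, also found on some macrophages. Pico gave 208, 155 and 161 counts with IL-1β and 56, 55 and 57 with saline, and TruSeq 219, 221 and 232 against 131, 117 and 113. V4 gave 191, 141 and 179 against 96, 65 and 120. The treatments did not overlap in any kit. Lyve1 rose by 1.65 ± 0.23 in Pico (3.13-fold, adjusted p = 9.48e-05, limma-voom) and by 0.94 ± 0.13 in TruSeq (1.92-fold, adjusted p = 0.000409). The V4 value of 0.90 ± 0.32 missed the threshold (adjusted p = 0.102), and passed with edgeR (1.04, adjusted p = 0.045) and DESeq2 (1.04, adjusted p = 0.0198), the adjusted p reaching 0.3 over its alternatives.

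Stab2 (ENSMUSG00000035459; mm9 chr10:86303943-86470770, minus strand, 72 exon blocks) encodes stabilin-2, a scavenger receptor of sinusoidal endothelium that takes up hyaluronan. TruSeq gave 205, 263 and 397 counts with IL-1β and 497, 580 and 565 with saline, and Pico 240, 264 and 369 against 437, 466 and 445. V4 gave 99, 53 and 158 against 206, 138 and 84, with overlap. Mouse ILB.9583 had the highest count among the IL-1β mice in all 3 kits. Stab2 fell by 0.93 ± 0.20 in TruSeq (1.91-fold lower, adjusted p = 0.00578, limma-voom) and by 0.62 ± 0.16 in Pico (1.54-fold lower, adjusted p = 0.0107), and V4 gave -0.49 ± 0.46 (adjusted p = 0.571). The Pico call was lost without mouse UNT.9574 (-0.64, adjusted p = 0.0527), UNT.9575 (-0.60, adjusted p = 0.0516), ILB.9579 (-0.50, adjusted p = 0.0955) or ILB.9582 (-0.57, adjusted p = 0.1), with 0.00473 the lowest over its alternatives. Its exons share 141 bases with Gm16268 on the other strand.

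Stab1 (ENSMUSG00000042286; mm9 chr14:31952199-31981827, minus strand, 58 exon blocks) encodes stabilin-1, the related receptor that macrophages also use. TruSeq gave 581, 461 and 725 counts with IL-1β and 583, 572 and 567 with saline, Pico 259, 213 and 230 against 301, 299 and 232, and V4 129, 96 and 123 against 132, 156 and 125. The treatments overlapped in every kit, and the IL-1β mice of TruSeq spread far more widely than the saline mice. The log2 fold change was 0.06 in TruSeq (95% interval -0.28 to 0.39), -0.21 in Pico (-0.56 to 0.14) and -0.24 in V4 (-0.88 to 0.39), and none passed the test (adjusted p = 0.804, 0.447 and 0.657, limma-voom). These intervals leave room for a modest change in either direction. In V4, 109 exon bases are shared with Nt5dc2 on the other strand, whose V4 counts were 61, 85 and 52 against 159, 144 and 141.

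Per kilobase of annotated exon, the order of the genes changed with treatment. In the saline mice of TruSeq, Kdr stood first at 5.81 ± 0.71 CPM per kb (SD, n = 3), followed by Icam1 at 5.06 ± 0.23 and Stab2 at 4.89 ± 0.36, with Stab1, Cdh5, Lyve1 and Pecam1 down to 3.42 ± 0.13. Neighbours among these 7 overlapped between mice. Vcam1 (2.59 ± 0.62), Selp (0.272 ± 0.063) and Sele (0.0178 ± 0.0155) followed, each clear of the gene above. The place of Vcam1 depends on the length used, as its exons span 4917 bases together and 3398 in its longest transcript. With IL-1β, Icam1 stood first at 20.2 ± 2.35 CPM per kb and Lyve1 next at 6.93 ± 0.21, while Kdr had rank 9 at 1.12 ± 0.18, overlapping with Selp at 1.16 ± 0.51. In Pico, Kdr also went from first (13.1 ± 0.78) to rank 9 (2.98 ± 0.90), while Icam1 went from rank 4 (6.65 ± 1.95) to first (20.1 ± 2.33), where Cdh5 (19.7 ± 1.85) came next and overlapped with it. V4 differed in that Icam1 led in both treatments, at 6.35 ± 2.17 and 21.1 ± 3.31 CPM per kb, and Kdr went from rank 3 (2.2 ± 0.44) to rank 9 (0.527 ± 0.374). Relative to TruSeq, V4 levels over all genes fell with exon length. Icam1 has the fewest exon bases of the 10 genes (2540, against 7278 for Kdr), and the part of length in the V4 order was not tested. Summed over the 10 genes, TruSeq gave 193 to 219 CPM with IL-1β and 188 to 206 with saline, and these ranges overlapped. The sums were 387 to 428 against 378 to 398 in Pico and 103 to 127 against 64.4 to 87.4 in V4.

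Whether the kits differed in the size of the response was tested as an interaction of kit and treatment. No gene at all, and so none of the 10, passed an adjusted p of 0.05 in limma-voom in any pair of kits. At an unadjusted p under 0.05 there were 945 of 17207 genes for Pico against TruSeq and 1090 of 17147 for V4 against TruSeq. For Pico against V4 there were 900 of 16395. Of these genes, 2, 1 and 0 were among the 10. DESeq2 called 4, 72 and 17 genes and none of the 10, and edgeR called none. Those of the 10 with an unadjusted p under 0.05 in limma-voom were Lyve1, whose log2 fold change was 0.71 more in Pico than in TruSeq (95% interval 0.18 to 1.23, adjusted p = 0.9, limma-voom), and Vcam1, with 0.84 more in Pico (0.16 to 1.52, adjusted p = 0.9) and 0.99 more in V4 (0.12 to 1.87, adjusted p = 0.683) than in TruSeq. Lyve1 was also 0.75 more in Pico than in V4 (-0.08 to 1.58), and Selp 0.73 more in Pico (-0.72 to 2.18) and 0.74 more in V4 (-2.11 to 3.60) than in TruSeq. For Kdr the difference between Pico and TruSeq was 0.21 (-0.35 to 0.78) and for Icam1 -0.37 (-0.92 to 0.18). A gene called in 1 kit alone, such as Pecam1 in TruSeq or Cdh5 in Pico, is therefore not shown to respond differently there. The intervals for Pecam1 (0.49, -0.09 to 1.07) and Cdh5 (0.44, -0.01 to 0.88) between Pico and TruSeq included 0. With the mouse as a block, which pairs the libraries across kits, 3, 1 and 1 of the 10 genes had an unadjusted p under 0.05. Those added were Cdh5 for Pico against TruSeq (0.43, adjusted p = 0.669, limma-voom) and Lyve1 for Pico against V4 (0.79, adjusted p = 0.782). How many of all genes had such an unadjusted p in this fit was not counted.

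Levels of the 10 genes also differed between kits, which is a description because each table was normalized separately. On the log2(CPM + 1) scale and over the 6 mice, V4 lay below TruSeq by 2.18 ± 0.38 (SD) for Cdh5, 2.04 ± 0.22 for Stab1, 1.63 ± 0.62 for Stab2 and 1.53 ± 0.46 for Pecam1, where the median gene lay below by 0.42. Icam1 in V4 differed from TruSeq by 0.16 ± 0.31. Among genes averaging 20 counts or more, the median log2 ratio of V4 to TruSeq went from 0.65 for genes under 2 kb of exon to -0.07, -1.02 and -1.75 for genes of 2 to 4, 4 to 8 and over 8 kb. Cdh5, with 3986 exon bases, and Pecam1, with 4314, lay below the median of their length range. Pico lay above TruSeq by 1.68 ± 0.32 for Cdh5, 1.47 ± 0.19 for Stab2, 1.22 ± 0.35 for Kdr and 0.93 ± 0.36 for Pecam1, where the median gene lay 0.01 above. Low counts went with this in V4, where Cdh5 had 20 to 53 counts per library, Pecam1 26 to 62 and Kdr 20 to 231.

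**Figure D3:**
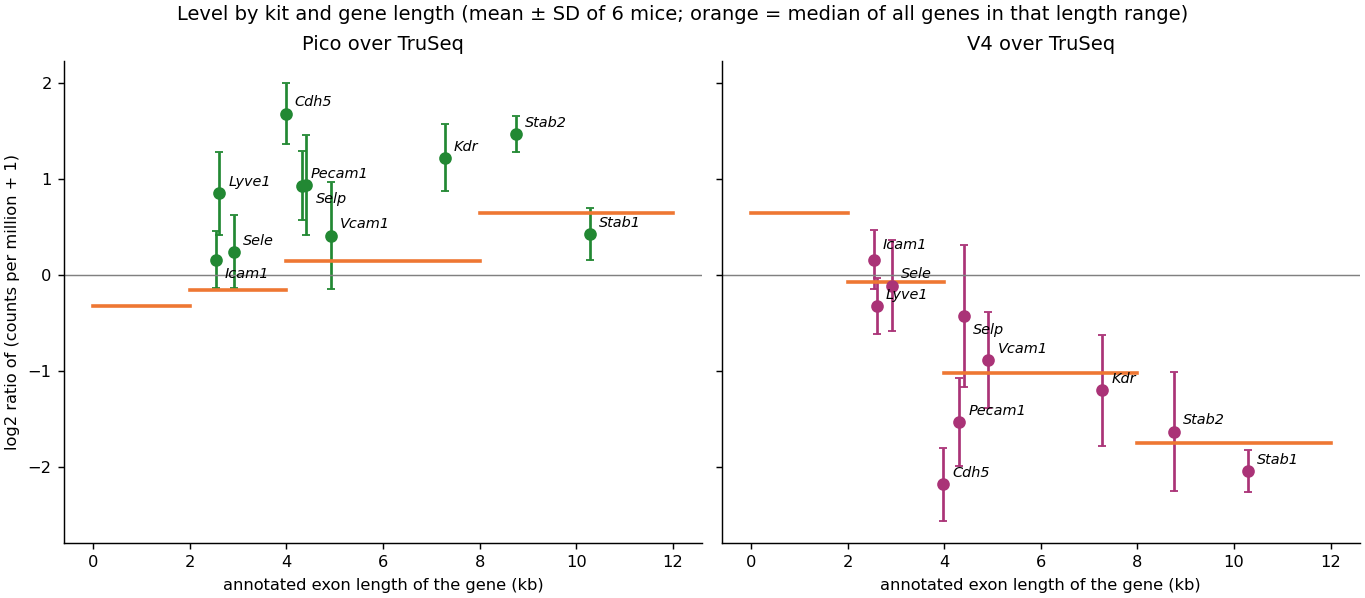
Mean log2 ratio of (CPM + 1) to TruSeq for Pico (left) and V4 (right) against the annotated exon length of each gene in kb, with the SD over 6 mice. Orange lines are the medians of all genes averaging 20 counts or more in 4 length ranges, which fall with length for V4 (0.65 to -1.75) and rise for Pico (-0.32 to 0.65).

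Because each mouse was measured with 3 kits, differences between mice of a treatment can be followed across kits. Stab2 was highest in mouse ILB.9583 with every kit (mean deviation 0.51 on the log2 scale from the IL-1β mean). Among saline mice, Icam1 was highest in UNT.9574 (0.33) and Selp highest in UNT.9575 (0.31) and lowest in UNT.9576 (-0.40) with every kit. Stab1 was lowest in ILB.9582 among the IL-1β mice (-0.22) and in UNT.9576 among the saline mice (-0.14). For the lowest mouse no share over all genes was computed. The same mouse was highest in all kits for 1 of the 10 genes with IL-1β and 2 with saline. Among 8960 genes averaging 20 counts or more it was 21.8% and 24.8%, so the 10 genes lie near that share.

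In the sinusoidal and pan-endothelial lists more genes fell than rose in every kit, as over all genes with library totals. It did not hold in Pico for the pan-endothelial genes with TMM factors or DESeq2 (3 higher and 3 lower), or edgeR (4 and 3). Of 20 listed sinusoidal genes 0 rose and 16 fell in TruSeq (median log2 fold change -1.01, against -0.17 for all genes), 7 fell in Pico (-0.78 against -0.12) and 5 in V4 (-1.08 against -0.22). The background of lower calls was 21.8%, 10.8% and 7.41% of all genes, and that of higher calls 12.3%, 6.78% and 3.6%. With TMM factors 15, 7 and 4 fell and 0, 1 and 0 rose in TruSeq, Pico and V4. With edgeR 16, 7 and 4 fell and 0, 1 and 0 rose. DESeq2 called 15, 7 and 6 lower and 1 higher in each kit. Among the genes that fell, Clec4g, a lectin of sinusoidal endothelium, went from 483 ± 74.1 TruSeq counts (SD, n = 3) with saline to 139 ± 19.1 (log2 fold change -1.75, adjusted p = 5.61e-05, limma-voom). Fcgr2b, the inhibitory Fc receptor that clears immune complexes in the sinusoid, went from 449 ± 50.3 to 163 ± 20.1 (-1.42). Ehd3, an endocytic trafficking protein, had a log2 fold change of -1.59 and the DNase Dnase1l3 of -1.32, and all 4 fell in every kit. The other 1 of the 5 in V4, named after its values were seen, was Wnt2. Lyve1 stood against most of this list in direction, and Stab2 with most of it. The list was summed at 206 to 228 CPM with IL-1β and 387 to 443 with saline in TruSeq.

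Of 25 pan-endothelial genes 3 rose and 12 fell in TruSeq (median -0.58), 1 rose and 3 fell in Pico (-0.54) and 0 rose and 5 fell in V4 (-0.90). With TMM factors 4, 3 and 0 rose and 9, 3 and 4 fell, and in V4 edgeR and DESeq2 called 2 lower. Over all genes 12.3% rose and 21.8% fell in TruSeq, 6.78% and 10.8% in Pico, and 3.6% and 7.41% in V4. The limma-voom counts of this list in Pico lie near these shares. Ptprb, the endothelial phosphatase VE-PTP that binds VE-cadherin, went from 929 ± 88.7 to 186 ± 41.5 TruSeq counts (log2 fold change -2.30, adjusted p = 1.3e-05, limma-voom), from 1080 ± 63.1 to 266 ± 78.5 in Pico (-2.04) and from 150 ± 35.8 to 37.7 ± 7.51 in V4 (-1.96). Its change was close in size to that of Kdr. Eng, the TGF-β co-receptor endoglin, fell by 0.93 in TruSeq, 0.87 in Pico and 1.35 in V4. Named after their values were seen, the angiopoietin receptor Tek fell in Pico (-1.56) and TruSeq (-2.2), Erg, Sox17 and S1pr1 fell in V4 beside Ptprb and Eng, and the 3 that rose in TruSeq were Rasip1 (1.12), Nos3 (0.84) and Esam (0.48), of which Rasip1 also rose in Pico (1.82). Erg and Sox17 had few counts in V4 (means of 0.667 against 8.33 and 0.333 against 6.33), and Sox17 passed in no other kit.

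The adhesion and transmigration genes outside the 10 had 3 higher and 5 lower of 18 listed in TruSeq (median 0.11), 0 and 2 of 17 in Pico (0.28) and 1 and 1 of 16 in V4 (0.44). These shares lie near those of all genes, which were 12.3% higher and 21.8% lower in TruSeq, 6.78% and 10.8% in Pico and 3.6% and 7.41% in V4. The number higher was 5, 1 and 1 with TMM factors, 4, 3 and 1 with edgeR and 3, 1 and 3 with DESeq2 in TruSeq, Pico and V4. Pvrl2 (nectin-2), a junctional adhesion molecule, fell in all kits, by 1.23 in TruSeq, 0.96 in Pico and 1.39 in V4. Cd99l2 fell by 0.86 in TruSeq and 0.77 in Pico, and Jam2 fell by 0.72 in TruSeq. Named after their values were seen, Madcam1 (a mean of only 1.33 counts with IL-1β and none with saline), the chemokine Cx3cl1 (0.96) and Vezf1 (0.45), a transcription factor rather than an adhesion molecule, rose in TruSeq, Chst2 (-1.58) and Cd47 (-0.54) fell there, and Chst4 rose in V4. Chst4 had means of 10.3 against 0.667 counts in V4 and 3.33 in both treatments of TruSeq, and did not pass in TruSeq or Pico.

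Of 12 genes for the leukocyte ligands of these molecules or their subunits, 4 rose and 1 fell in TruSeq (median 0.17). In Pico 2 rose (0.41) and in V4 2 (0.72), and 4 rose in Pico with TMM factors, edgeR and DESeq2 alike. Over all genes 12.3% rose and 21.8% fell in TruSeq, while 6.78% rose in Pico and 3.6% in V4. Itgam, the alpha subunit of Mac-1, had 78.7 ± 12.7 TruSeq counts with IL-1β and 14.7 ± 2.08 with saline (log2 fold change 2.42, adjusted p = 0.000112, limma-voom), and rose in all kits. Itgb7 fell in TruSeq (6 ± 1 against 19.7 ± 5.51). Cd44 (0.90 in TruSeq, 0.96 in Pico) and Glg1 (0.43 in TruSeq), named after their values were seen, rose too.

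Markers of other liver and blood cells moved with treatment beside these results, and their part in the levels of the 10 genes was not tested. For comparison, 12.3% of all genes rose and 21.8% fell in TruSeq, 6.78% and 10.8% in Pico, and 3.6% and 7.41% in V4. Neutrophil markers rose, 7 of 10 listed in TruSeq, 7 of 7 in Pico and 6 of 9 in V4, with none lower. Their sum in TruSeq was 48.1 to 94.1 CPM with IL-1β against 3.36 to 6.40 with saline, S100a9 giving 365 ± 138 against 15.7 ± 3.06 counts and S100a8 214 ± 87.0 against 8.33 ± 4.04. The sums were 42.3 to 59.4 against 0.971 to 5.14 CPM in Pico and 43.7 to 86.5 against 2.15 to 5.41 in V4. Mpo was at 0 in all libraries, Ly6g in those of Pico and V4, and Elane and Camp in those of Pico. Kupffer cell and macrophage markers went mostly down: of 12, 1 rose and 7 fell in TruSeq, 0 and 5 in Pico, and 0 and 4 in V4. Their sum was 131 to 184 against 337 to 431 CPM in TruSeq, 171 to 228 against 304 to 401 in Pico and 134 to 198 against 320 to 434 in V4. Slc40a1, the iron exporter ferroportin, fell from 1540 ± 143 to 345 ± 22.9 TruSeq counts and Clec4f, a Kupffer cell lectin, from 749 ± 160 to 322 ± 47.1. Both fell in every kit, as did Vsig4. Cd5l and Csf1r fell in Pico and TruSeq, C1qc in V4 and TruSeq, and Emr1 in TruSeq. Marco rose in TruSeq, and all from Vsig4 to Marco were named after their values were seen. Of 11 stellate cell markers 5 fell in TruSeq, 3 in Pico and 2 in V4 and none rose, and Dcn and Ecm1 fell in TruSeq by 0.57 and 0.49. Lrat and Colec11 fell in every kit and Reln in TruSeq and Pico, named after their values were seen. The sum of stellate cell markers was 263 to 329 against 437 to 509 CPM in TruSeq, 373 to 455 against 498 to 647 in Pico and 293 to 370 against 437 to 539 in V4.

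**Figure D4:**
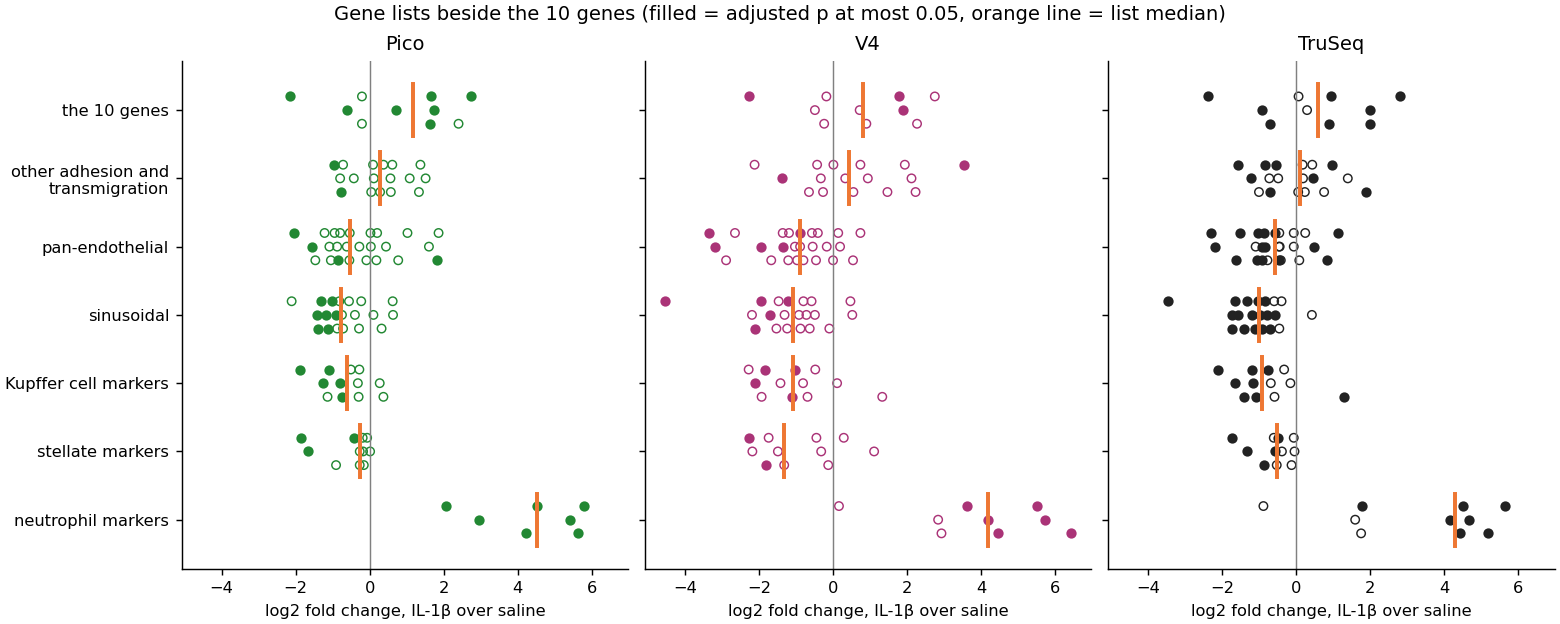
Log2 fold change of IL-1β over saline (x axis) for the genes of 7 lists (rows) in each kit, with filled points for an adjusted p of at most 0.05 and an orange line at the median of the list. The sinusoidal list lies mostly left of 0 (median -1.01 in TruSeq) and the neutrophil markers lie mostly right of it, while the 10 genes fall on both sides.

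Across the 18 libraries, after centring each kit on its mean, levels on the log2(CPM + 1) scale were correlated for the 9 genes other than Sele, as a description. Pearson's r was 0.89 between Icam1 and Vcam1 and 0.87 between Icam1 and Lyve1, and -0.94 between Icam1 and Kdr. Kdr and Stab2 had r = 0.71, Pecam1 and Stab2 0.76, and Stab1 and Stab2 0.44, while Stab1 ran from -0.49 to 0.30 with the others. These values mostly restate the treatment, which all libraries share, and the 3 kits of a mouse are not independent. The genes most like Icam1 among 8960 were Il1rn, the IL-1 receptor antagonist (r = 0.984), Mthfd2 (0.982) and the guanylate-binding protein Gbp6 (0.981), and 336 genes reached 0.9. Stab2 was closest to Phlpp1 (0.906), Mterfd2 (0.876) and Dlg3 (0.873), and 1 gene reached 0.9.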

How the data were processed

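The authors aligned reads to mm9 with GSNAP, resampled them to equal depth within a kit with their PORT pipeline, and deposited counts per gene, requiring annotated junctions, sense reads only in the stranded kits and either strand in V4. The labels do not state which of the repeated Pico preparations the table holds. Libraries of 1 kit at a time entered limma-voom (limma 3.58.1, R 4.3.3) with library totals, over genes with at least 1 count, with Benjamini-Hochberg adjustment over all of them. Whole counts were divided by the library total for CPM, and by the exon union of the mm9 annotation for CPM per kb. Alternatives were TMM factors, edgeR 4.0.16, DESeq2 1.42.0, a filter of 10 counts in 3 libraries, thresholds of 0.01 and 0.1, leaving out each mouse, and the mouse as a block. No 2 libraries of a treatment agreed within sampling noise. Fits were tested on simulated data.

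The genes, lists and tests were chosen with earlier results of these data known. Named are the 10 genes, up to 4 genes of each endothelial or ligand list with the largest change in TruSeq among those called alike in all kits (otherwise the 2 smallest p), the 2 most abundant genes of each other list, overlapping neighbours, and the 3 genes most like Icam1 and Stab2. Others are marked where they stand, and 3 genes that the rule takes in are not reported here. All kits used RNA of the same animals, so mice pair the libraries across kits. Over 8960 genes deviations of the same mouse correlated at 0.168 to 0.458 for V4 with TruSeq and 0.194 to 0.446 for Pico with TruSeq. For V4 with Pico they correlated at 0.0796 to 0.234. Those of other mice of the treatment correlated at -0.36 to -0.0327. Deviations were taken from the mean of the 3 mice of a treatment, which by itself pushes the values of other mice to be negative.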

Additional observations from a re-analysis of the deposited data

How the results depend on the processing

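Of the 296 alternative values of the log2 fold changes of the 10 genes, 279 kept direction and side of the threshold, 7 lost the call, 7 gained it and 3 changed sign. Those that changed sign had not passed: Pecam1 in V4 went from -0.18 to 0.08 without mouse UNT.9574 and 0.09 without mouse ILB.9582 (-0.43 to 0.09 over the mice left out), and Stab1 in TruSeq from 0.06 to -0.10 without mouse ILB.9583 (-0.10 to 0.22). Cdh5 in TruSeq passed with TMM, edgeR and DESeq2 (0.44 in each). Leaving out 1 mouse gave 6 to 7 of the 10 genes called in Pico, 1 to 3 in V4 (1 without mouse UNT.9575) and 8 in TruSeq, and 1765 to 2603, 908 to 2093 and 5114 to 5606 of all genes against 3179, 1986 and 6614. An adjusted p of 0.01 gave 1884, 764 and 4081 genes and left 1 of the 10 in V4, and 0.1 gave 2982 genes in V4. Sele dropped out of the filter of 10 counts in 3 libraries in every kit.

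With the mouse as a replicate block, the pairing left 0 of the 10 genes with a different response in each pair of kits, and 1, 0 and 0 of all genes for Pico against TruSeq, V4 against TruSeq and Pico against V4, where the unpaired fit called 0. Within a kit each mouse had 1 treatment, so no block could be fitted there. Without mouse UNT.9576, 58 genes were called for V4 against TruSeq and 30 for Pico against V4, none of them among the 10, and the cause was not tested. Sele had 0 to 18 counts per library, and its counting intervals (2.64 to 95.2 in TruSeq, 1.36 to 56.2 in Pico) are those of the ratio of its summed counts.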

Other observations

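Angiogenic and haemostatic genes of the vessel wall showed a few large changes. For the lists of this section, the shares of all genes called by limma-voom were 12.3% higher and 21.8% lower in TruSeq. They were 6.78% and 10.8% in Pico and 3.6% and 7.41% in V4. Angpt2, the angiopoietin that endothelium stores and releases on activation, rose from 9.33 ± 3.51 to 42.0 ± 13.1 TruSeq counts (SD, n = 3, log2 fold change 2.17, adjusted p = 0.00247, limma-voom). Plvap, the diaphragm protein of endothelial openings, fell from 283 ± 28.2 to 176 ± 28.6 (-0.65, adjusted p = 0.00764). Of that list 1 gene rose and 5 fell of 19 in TruSeq (median -0.08), 1 and 2 of 19 in Pico (-0.08) and 0 and 0 of 18 in V4 (-0.66) by limma-voom, where edgeR called 2 lower and DESeq2 3. In TruSeq 4 fell with TMM factors and edgeR and 3 with DESeq2. Those that fell, apart from Plvap and named after their values were seen, were Vegfa, Angpt1, Dll4 and Hes1 in TruSeq, and Vegfa and Hes1 in Pico. Vegfa, the ligand of the Kdr product, fell by 0.44 in TruSeq and 0.70 in Pico. The counts of this angiogenic list lie near the shares of all genes given above.

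F3, tissue factor, fell from 58.7 ± 3.21 to 11.3 ± 3.51 TruSeq counts (log2 fold change -2.32, adjusted p = 0.000221, limma-voom), and it fell in every kit. The haemostasis list had 2 genes higher and 3 lower of 10 in TruSeq (median 0.12), 2 and 1 of 10 in Pico (0.28) and 1 and 2 of 9 in V4 (-1.03). In TruSeq 4 rose with TMM factors and edgeR and 3 with DESeq2, and in Pico 3 rose with edgeR. Named after their values were seen, Thbd, thrombomodulin, rose in Pico (1.88) and TruSeq (1.21), Tfpi (-0.98) and Entpd1 (-0.96) fell in TruSeq, and Plat fell in V4. Plat went to 0 from a mean of 16 counts in V4, while its log2 fold changes of 0.40 in TruSeq and 0.03 in Pico did not pass.

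Of 9 hepatocyte markers 2 rose and 4 fell in TruSeq, 3 and 6 in Pico, and 1 and 4 in V4 by limma-voom. With TMM factors, edgeR and DESeq2 alike 4 fell in Pico, and V4 had 1 higher and 2 lower, 1 and 1, and 2 and 1. Those higher were Fgb, Hnf4a and, in Pico, Apob, the last pair named after their values were seen, with the acute-phase gene Fgb up by 1.93 and Alb down by 0.61 in TruSeq on the log2 scale. Of 5 cholangiocyte markers limma-voom called 1 higher in Pico (Epcam, named after its values were seen), none in V4, and 2 higher (Epcam and Sox9) and 1 lower (Spp1) in TruSeq. The call of Spp1 was lost with TMM factors, edgeR and DESeq2, 2 were higher in Pico with each, and edgeR and DESeq2 called 1 higher in V4. Lymphocyte markers had no call in Pico or V4, and 3 of 8 fell in TruSeq, Cd4 and Cd79a among them, the latter named after its values were seen. None of the 5 erythroid markers was called in any kit by limma-voom (1 lower in Pico with edgeR), and Alas2 and Hbb-b1 had log2 fold changes of -0.13 and -0.70 in TruSeq.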
